A study of Mus musculus with 15 samples.

Results

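The 8 genes described here are the fibroblast lineage genes En1, Twist1, Twist2, Prrx1, Prdm1, Dlk1, Dpp4 and Pi16, which were chosen by gene symbol and were all found among the 18929 genes measured in mouse skin. RNA of 15 samples was sequenced, with 3 in each of 5 groups, and the total count per sample lay between 15840551 and 18404188. The animals were male balb/c mice, labelled WT, that were 4 to 6 weeks old. In 4 groups a full-thickness wound had been cut in the dorsal skin, 10 mm or 15 mm across, and covered by bead-jet printing, in which Matrigel beads are shot onto the wound by compressed air. The acellular groups received beads without cells. The HDB groups (high cell density beads) received beads loaded with human mesenchymal stem cells (MSCs) from umbilical cord, with 56 such beads and 84000 cells for a 10 mm wound and 120 beads and 180000 cells for a 15 mm wound. By the methods, acellular beads were printed into these wounds as well. By the methods, healed skin was sequenced 4 weeks after implantation, while the wound experiment itself is stated to end on day 21. The last group was unwounded normal skin. Counts were assigned to mouse genes, and how reads of the implanted human cells were treated is not given in the sources used here, so any part they have in the HDB counts cannot be told apart. Nothing in the labels or methods states whether the replicates of a group came from separate animals, so p-values measure the spread between these samples.

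The dermis is built by fibroblasts of several lineages. A papillary lineage lies under the epidermis, a reticular lineage makes the lower dermis, and adventitial fibroblasts sit around vessels and in the fascia. In dorsal skin of the mouse, cells descended from Engrailed-1 (En1) expressing precursors are known as the main source of scar matrix, and many of them carry Dpp4, a membrane peptidase also named CD26. Prrx1 is a homeobox factor of limb and body wall mesenchyme, and Twist1 and Twist2 are basic helix-loop-helix factors that keep mesenchymal cells in their state and bind DNA with a partner from the E protein family. Prdm1 (Blimp1) marks papillary precursors during skin development but is also used by follicle, sebaceous gland and plasma cells. Dlk1 marks reticular and adipocyte precursors before birth. Pi16 is a secreted peptidase inhibitor family member that marks adventitial fibroblasts.

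The 8 genes lie on 5 chromosomes of the mouse genome (RefSeq, build GRCm38.p6). En1 lies at chr1:120602487-120607991, Twist2 at chr1:91801461-91848034 and Prrx1 at chr1:163245119-163315145. Twist1 lies at chr12:33957671-33959831 and Dlk1 at chr12:109452485-109463336. Prdm1 lies at chr10:44437174-44528558, Dpp4 at chr2:62330073-62412315 and Pi16 at chr17:29318796-29328903. Prrx1, Prdm1 and Dpp4 are on the minus strand. Long non-coding genes that were not listed in the table overlap Twist2, Prrx1 and Pi16, and whether the counting used strand is not given in the sources used here. Twist1 and Twist2 are close paralogs, and the deposited estimated counts of both were whole numbers in every sample.

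Twist1 and Twist2 had similar patterns over the samples, and En1 followed them less closely, as described with the correlations. The 250 bases before the annotated start of these 3 genes are shown because their windows lie outside the annotated gene, with matches to the E-box CANNTG, the letters that helix-loop-helix factors bind, in capitals. The windows are chr12:33957421-33957670 for Twist1, chr1:91801211-91801460 for Twist2 and chr1:120602237-120602486 for En1, all on the plus strand of GRCm38.p6 from RefSeq.
Twist1: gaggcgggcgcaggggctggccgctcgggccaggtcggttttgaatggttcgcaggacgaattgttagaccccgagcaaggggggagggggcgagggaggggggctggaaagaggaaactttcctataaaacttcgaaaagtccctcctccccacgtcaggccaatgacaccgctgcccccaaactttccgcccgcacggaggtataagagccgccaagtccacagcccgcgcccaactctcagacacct
Twist2: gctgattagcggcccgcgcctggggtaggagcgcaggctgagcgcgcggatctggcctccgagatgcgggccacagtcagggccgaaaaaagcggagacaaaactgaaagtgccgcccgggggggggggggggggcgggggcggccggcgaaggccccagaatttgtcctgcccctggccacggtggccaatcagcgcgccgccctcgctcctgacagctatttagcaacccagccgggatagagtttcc
En1: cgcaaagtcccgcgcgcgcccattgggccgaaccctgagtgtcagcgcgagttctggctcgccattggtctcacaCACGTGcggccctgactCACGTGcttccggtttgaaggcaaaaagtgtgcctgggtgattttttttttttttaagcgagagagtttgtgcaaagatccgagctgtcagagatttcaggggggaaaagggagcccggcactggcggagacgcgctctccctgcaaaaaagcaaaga
The En1 window held 2 E-boxes, both spelled CACGTG, and neither Twist window held one. Over all 32851 RefSeq promoter windows of this length, 66.2% held at least 1 E-box (the motif reads the same on both strands). For the other members the RefSeq table gives the 250 bases before a start that lies inside the annotated gene span, so their windows lie in the gene (Prrx1, Prdm1, Dlk1) or overlap it (Dpp4, Pi16). These windows held 2 E-boxes at Prdm1, 1 at Dpp4 and 0 at Prrx1, Dlk1 and Pi16. The homeodomain core TAATTA, which also reads the same on both strands, was found once, at Prrx1, and in 4.84% of all windows. The windows of Twist1 and Twist2 had a GC content of 62.4% and 68.8%, and those of the other members ranged from 43.6% at Dpp4 to 59.2% at Prdm1. A match of letters is a description of the sequence and not a binding site.

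Levels are given as CPM, counts scaled to the size of the library, after TMM normalization, which corrects for differences in RNA composition, and as CPM per kilobase of the longest coding transcript where genes are compared. In normal skin Pi16 had the highest mean level per kilobase of the 8 genes, at 107.6 CPM per kilobase. Prrx1 followed at 33.5, Twist1 at 29.4 and Dpp4 at 13.6 CPM per kilobase. Twist2 stood at 5.39, Prdm1 at 2.62, En1 at 1.61 and Dlk1 at 0.127 CPM per kilobase. In acellular 10 mm, HDB 10 mm and acellular 15 mm skin Pi16 took the third place behind Twist1 and Prrx1, and in HDB 15 mm skin it was again first at 39.9 ± 16.4 CPM per kilobase (SD, n = 3), close to Twist1 at 36.1 ± 3.12. Prrx1 and Twist1 were neighbours in every group. In normal skin they stood at 33.5 ± 7.22 and 29.4 ± 5.03 CPM per kilobase, and Twist1 was at 0.815 to 0.93 times Prrx1 of the same sample. Dlk1 was last in all 5 groups, with 1 to 20 counts per sample.

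**Figure D1:**
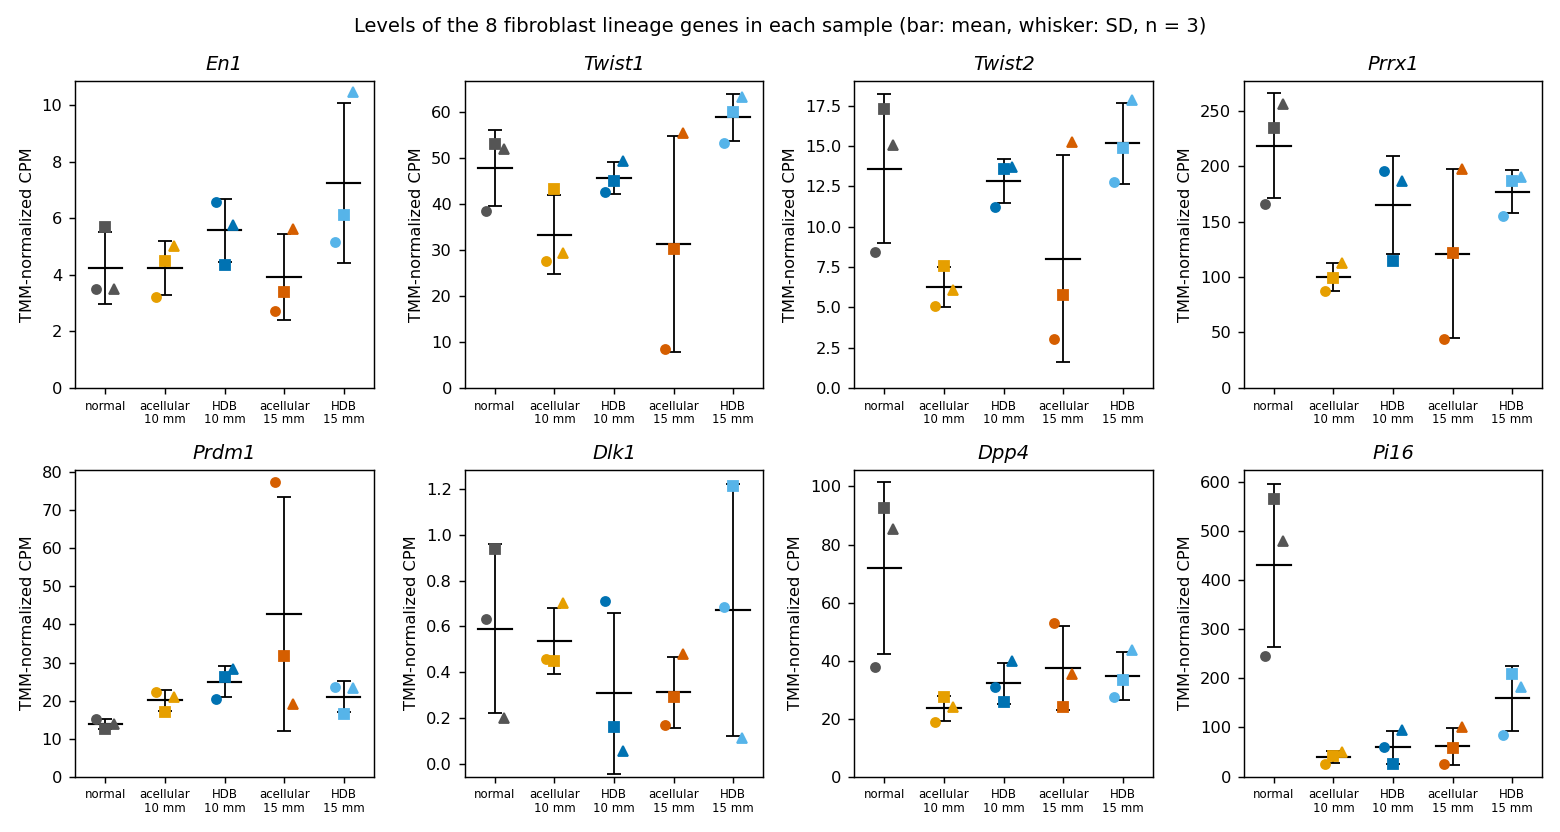
TMM-normalized CPM of each of the 8 genes (vertical axis, linear) in the 5 groups (horizontal axis), with a circle, square and triangle for replicates 1, 2 and 3, a line for the mean and whiskers for the SD (n = 3). Pi16 was lower in every wound sample than in every normal sample, Prdm1 was higher in every wound sample, and acellular 15 mm replicate 1 was lowest for Twist1, Twist2, Prrx1 and En1 and highest for Prdm1.

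The comparisons of each wound group with normal skin asked how far the healed skin had returned to the levels of uninjured skin. Pi16 was the member that fell most, to 9.16% of its normal mean in acellular 10 mm skin, 13.9% in HDB 10 mm skin and 14.4% in acellular 15 mm skin, while HDB 15 mm skin held 37% of the normal mean. Dpp4 also fell in both 10 mm groups, and Prdm1 rose in acellular 15 mm skin. En1, Twist1, Twist2, Prrx1 and Dlk1 passed the test in no wound group. Calls were made with edgeR (quasi-likelihood test) at a Benjamini-Hochberg adjusted p under 0.05 over 15369 genes, and all 8 genes passed the filter on low counts. All 4 comparisons share the same normal samples. In bulk skin, fewer fibroblasts of a kind and less RNA of a gene per fibroblast cannot be told apart.

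In acellular 10 mm skin 2 of the 8 members were called, both lower (Dpp4 and Pi16), where 20.3% of all genes tested were called, 9.77% higher and 10.6% lower. In acellular 15 mm skin 2 members were called, Prdm1 higher and Pi16 lower, against 30.2% of all genes (17.6% higher and 12.6% lower). In HDB 10 mm skin Dpp4 and Pi16 were called lower, against 12.3% of all genes (6.1% higher and 6.23% lower). The share of members called, 2 of 8, was thus near the share of all genes in the acellular groups and was not a result about the 8 genes as a set. In HDB 15 mm skin edgeR called 0 members, against 5.18% of all genes (2.67% higher and 2.51% lower), with 3 members at an unadjusted p under 0.05 where 26.9% of all genes were, and DESeq2 called 2 members (Dpp4 and Pi16) and 18.6% of all genes. The median log2 fold change of the 8 members was -0.82 with acellular beads and -0.24 with HDB in 10 mm wounds, and -0.81 and 0.17 in 15 mm wounds, and the median of all genes lay between 0.019 and 0.059 in the same comparisons.

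**Figure D2:**
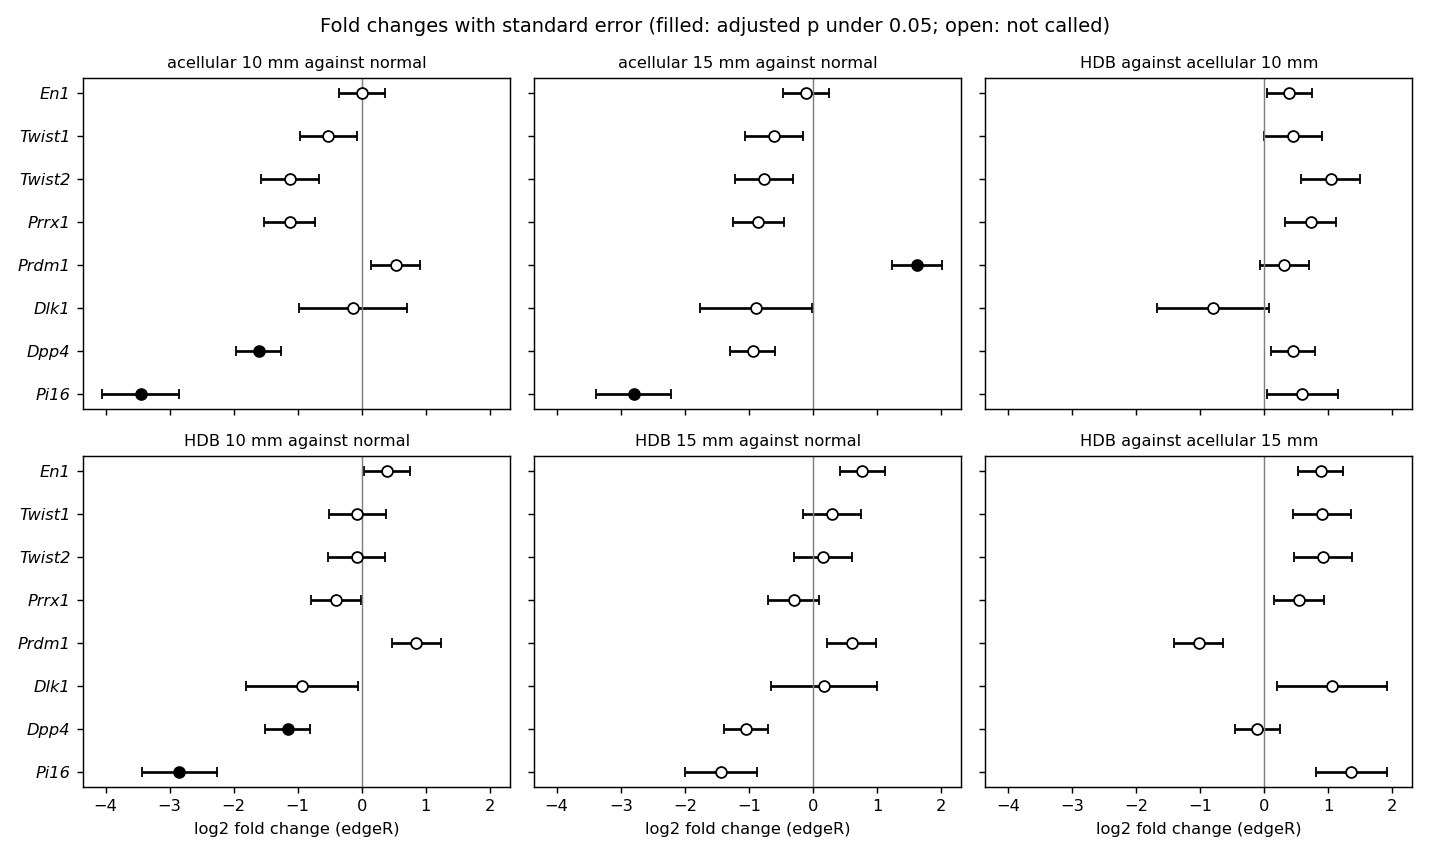
Log2 fold changes (horizontal axis) of the 8 genes (vertical axis) with their standard errors, for the 4 wound groups against normal skin and for HDB against acellular beads at each wound size. Filled points were called at an adjusted p under 0.05, which were Pi16 in 3 comparisons, Dpp4 in 2 and Prdm1 in 1.

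Pi16 measured 244.8, 565.4 and 479.6 CPM in the 3 normal samples. It measured 26.1, 41.6 and 50.4 CPM in acellular 10 mm skin and 59.3, 25.8 and 94 CPM in HDB 10 mm skin. In the 15 mm wounds it measured 26, 57.9 and 101.7 CPM with acellular beads and 85, 209.7 and 182.9 CPM with HDB. No wound sample reached the lowest normal sample, and in HDB 15 mm skin replicates 2 and 3 came nearest to it. The log2 fold change was -3.45 ± 0.60 (SE, adjusted p = 0.00622) in acellular 10 mm, -2.80 ± 0.58 (adjusted p = 0.00689) in acellular 15 mm and -2.85 ± 0.59 (adjusted p = 0.0164) in HDB 10 mm skin by edgeR. In HDB 15 mm skin it was -1.43 ± 0.56 and was not called (adjusted p = 0.126). There Pi16 was called by DESeq2 (-1.45, adjusted p = 0.0343) and by edgeR in a fit of only the groups compared (-1.43, adjusted p = 0.0476). In HDB 10 mm skin the call was lost without HDB 10 mm replicate 2 (adjusted p = 0.0677) or without normal replicate 3 (adjusted p = 0.0621). Over all alternatives the adjusted p of Pi16 in HDB 10 mm skin lay between 3.41e-06 and 0.0677.

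Dpp4 measured 37.8, 92.6 and 85.3 CPM in normal skin. Its levels were 18.8, 27.6 and 24.1 CPM in acellular 10 mm skin and 30.8, 25.9 and 39.9 CPM in HDB 10 mm skin. The 15 mm wounds held 52.9, 24 and 35.2 CPM with acellular beads and 27.4, 33.3 and 43.7 CPM with HDB. Normal replicate 1 lay well below the other two, within the range of 3 wound groups, and acellular 10 mm was the only wound group without overlap with normal skin. By edgeR Dpp4 fell by 1.61 ± 0.35 on the log2 scale in acellular 10 mm skin (adjusted p = 0.0125) and by 1.16 ± 0.35 in HDB 10 mm skin (adjusted p = 0.0484). The changes of -0.94 in acellular 15 mm (adjusted p = 0.0563) and -1.05 in HDB 15 mm skin (adjusted p = 0.0884) were not called. The former was called by DESeq2 (adjusted p = 0.0171), with each sample's trend over transcript length removed (adjusted p = 0.0482), without acellular 15 mm replicate 1 (adjusted p = 0.0289) and without normal replicate 1 (adjusted p = 0.0248). The acellular 10 mm call was lost without acellular 10 mm replicate 1 (adjusted p = 0.0585). The HDB 10 mm call was lost when a replicate block was fitted (adjusted p = 0.0696), without the filter on low counts (adjusted p = 0.0551), in a fit of only these groups (adjusted p = 0.0549), and without any 1 of HDB 10 mm replicates 1, 2 and 3 or normal replicates 2 and 3 (adjusted p from 0.0844 to 0.178).

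Genes listed as markers of adventitial and fascia fibroblasts were examined beside Pi16 and Dpp4, in a list chosen with earlier results of these data known. Of these 9 genes, 6 fell in 10 mm wounds with either kind of bead, and in 15 mm wounds 5 fell with acellular beads and 0 with HDB. None rose. Of all genes tested, 10.6% (acellular) and 6.23% (HDB) were called lower at 10 mm, and 12.6% and 2.51% at 15 mm. Between HDB and acellular beads at 15 mm 0 of the 9 were called. Their median log2 fold changes were -1.55 (acellular) and -1.31 (HDB) at 10 mm and -1.47 and -0.58 at 15 mm. Cd34, a surface sialomucin with the highest CPM of the list, measured 363.5 ± 126.1 CPM in normal skin (SD, n = 3) and 122.7 ± 5 CPM in acellular 10 mm skin, a log2 fold change of -1.57 (edgeR, adjusted p = 0.0144). Clec3b, which encodes the plasminogen-binding protein tetranectin, fell by 2.92 on the log2 scale in acellular 10 mm and by 2.05 in acellular 15 mm skin (edgeR, adjusted p = 0.0109 and 0.0231). Ly6c1 fell by 2.30, 2.04 and 1.92 in acellular 10 mm, acellular 15 mm and HDB 10 mm skin, and Anxa3 by 1.55, 0.99 and 1.31 (edgeR, adjusted p from 0.00425 to 0.0134). Ly6c1 and Cd34 are also made by endothelial cells, and 6 of 6 endothelial genes fell in both acellular groups, 5 of 6 in HDB 10 mm and 0 of 6 in HDB 15 mm skin. The summed endothelial level was 491.9 to 539.4 CPM in normal skin and 92.1 to 380.2 CPM in the wound groups. Its part in the change of Pi16 and Dpp4 was not tested.

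Calls in the other dermal lists varied by group, and so did the share of all genes called lower. That share was 10.6% with acellular beads and 6.23% with HDB at 10 mm, and 12.6% and 2.51% at 15 mm. Of 12 genes shared by most fibroblasts, 5 fell in acellular 10 mm skin and 1, the matrix proteoglycan gene Dcn, in acellular 15 mm skin, and 0 were called in either HDB group. Dcn fell by 2.12 on the log2 scale in acellular 10 mm skin (edgeR, adjusted p = 0.00913), and Dpt and Lum fell by 2.17 and 1.99 there (adjusted p = 0.0161 and 0.0414). Col3a1, a fibrillar collagen gene with the highest CPM of the list, had a log2 fold change of -1.64 in acellular 10 mm skin and was not called (edgeR, adjusted p = 0.058). Of 5 reticular and lower dermis genes, 3 fell with acellular beads and 1 with HDB in 10 mm wounds, and 2 and 0 fell in 15 mm wounds. Mgp, an inhibitor of calcification, fell by 1.71 in acellular 10 mm and by 1.40 in HDB 10 mm skin (edgeR, adjusted p = 0.00937 and 0.0255). Ly6a and Gpx3 fell by 1.70 and 2.40 in acellular 10 mm skin (adjusted p = 0.0144 and 0.0199). Of 8 adipocyte genes, 8 fell in acellular 10 mm skin and 0 were called in the other 3 groups, with Lep at a log2 fold change of -3.99 in acellular 10 mm skin (edgeR, adjusted p = 0.0113).

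Since Pi16, Dpp4 and Prrx1 are all fibroblast genes, the level of each member was also set against that of Prrx1 in the same library, a ratio that was chosen after the values were seen and was not tested. Pi16 stood at 2.42 to 3.94 times Prrx1 per kilobase in normal skin. In the wounds the ratio was 0.487 to 0.729 (acellular) and 0.368 to 0.825 (HDB) at 10 mm, and 0.78 to 0.955 and 0.896 to 1.84 at 15 mm. All 12 wound samples thus lay below the 3 normal samples, so that Pi16 and Prrx1 changed unequally. En1 relative to Prrx1 was 0.0339 to 0.0604 in normal skin and 0.0694 to 0.152 in the wounds, above normal in every sample. For Dpp4 the ratio was 0.283 to 0.49 in normal skin and 0.195 to 0.28 in HDB 10 mm skin, just below it, while the other wound groups overlapped with normal skin and acellular 15 mm replicate 1 stood out at 1.47. Twist1 relative to Prrx1 was 0.815 to 0.93 in normal skin, and both acellular 10 mm (1.04 to 1.75) and HDB 15 mm skin (1.29 to 1.38) lay above it without overlap.

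**Figure D3:**
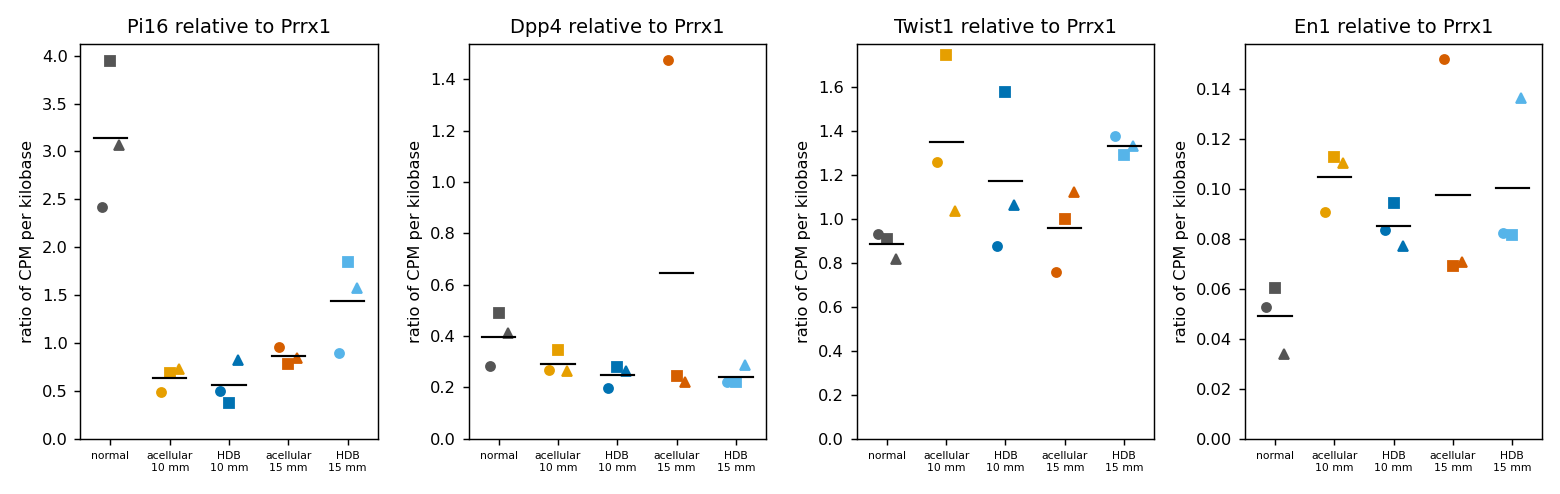
Ratio of the level per kilobase of Pi16, Dpp4, Twist1 and En1 to that of Prrx1 in the same sample (vertical axes, linear) in the 5 groups, with a circle, square and triangle for replicates 1, 2 and 3 and a line for the mean. The Pi16 ratio was lower and the En1 ratio higher in all 12 wound samples than in the normal samples, and the single high Dpp4 ratio was that of acellular 15 mm replicate 1.

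Prdm1 measured 15.2, 12.4 and 13.9 CPM in normal skin. Acellular 10 mm skin held 22.1, 17 and 20.9 CPM and HDB 10 mm skin 20.4, 26.2 and 28.4 CPM. In the 15 mm wounds it measured 77.4, 31.6 and 19.1 CPM with acellular beads and 23.5, 16.4 and 23.2 CPM with HDB. Every wound sample was above every normal sample, and acellular 15 mm replicate 1 stood far above the rest with 1366 counts. In acellular 15 mm skin Prdm1 rose by 1.63 ± 0.39 on the log2 scale (SE, edgeR, adjusted p = 0.0113). Without acellular 15 mm replicate 1 the rise was 0.87 (adjusted p = 0.0226), and in a fit of only these 2 groups it was 1.65 and not called (adjusted p = 0.0848). The differences of 0.53, 0.85 and 0.60 in acellular 10 mm, HDB 10 mm and HDB 15 mm skin were not called (edgeR, adjusted p = 0.32, 0.15 and 0.328). In fits of only the groups compared, Prdm1 was called in acellular 10 mm (adjusted p = 0.0308) and HDB 10 mm skin (adjusted p = 0.0245).

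Markers of other cell types that use Prdm1 varied between the same samples. The summed level of 5 hair inner root sheath genes was 8.38 to 10.5 CPM in normal skin, where Krt25 was at 0, and 11840, 769.6 and 22 CPM in acellular 15 mm replicates 1, 2 and 3. It was 17.5 to 1060 CPM in acellular 10 mm, 24.2 to 31.5 CPM in HDB 10 mm and 80.2 to 327.7 CPM in HDB 15 mm skin. All 5 genes rose in acellular 15 mm skin and 3 in acellular 10 mm skin, with Krt71, a keratin of the sheath, at 1056 ± 1654 CPM (SD, n = 3) in the first and 84.4 ± 84.1 CPM in the second. Prdm1 and this sum had a Pearson r of 0.81 over the 15 samples (Spearman rho 0.79), 0.73 over the 12 wound samples and 0.56 without the 2 samples whose Prdm1 level lay farthest from its median. The sum of the papillary and upper dermis list was as close to Prdm1, with r of 0.82, 0.78 and 0.53 in the same order. For the keratinocyte list r was 0.17, -0.26 and 0.70. These points share libraries, and the part of each of these cell types in the Prdm1 level was not tested. The 6 B and plasma cell genes summed to 0.737 to 6.16 CPM in all samples, with Jchain the highest, and of the 2 that were tested Mzb1 was called lower in both 15 mm groups. Of 7 papillary and upper dermis genes, 1 rose in each 10 mm group, 2 with acellular beads at 15 mm and 0 with HDB at 15 mm. Of all genes, 9.77% (acellular) and 6.1% (HDB) were called higher at 10 mm, and 17.6% and 2.67% at 15 mm. Lrig1, also a gene of follicle stem cells, rose by 0.71 in acellular 10 mm, 0.66 in acellular 15 mm and 0.76 in HDB 10 mm skin (edgeR, adjusted p = 0.0143, 0.0125 and 0.0185). Lef1, also a gene of the hair matrix, rose by 3.90 in acellular 15 mm skin (adjusted p = 0.0161), where replicates 1, 2 and 3 measured 228.1, 15.2 and 7.7 CPM against 4.29 to 7.52 CPM in normal skin.

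The homeobox factor Prrx1 measured 165.5, 234.3 and 255.7 CPM in normal skin. Acellular 10 mm skin held 87.6, 99.1 and 113.1 CPM, all below normal, and HDB 10 mm skin 195.2, 114.6 and 186.2 CPM. In the 15 mm wounds Prrx1 measured 44.4, 121.3 and 197.4 CPM with acellular beads and 155, 186.2 and 190 CPM with HDB. The 3 acellular 15 mm samples covered more than the range of the other wound groups. The log2 fold change in acellular 10 mm skin was -1.13 ± 0.40 and just missed the threshold by edgeR (adjusted p = 0.0605). It was called by DESeq2 (adjusted p = 0.0131) and in a fit of only these 2 groups (adjusted p = 0.00529).

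Twist2 measured 8.43, 17.3 and 15.1 CPM in normal skin and 5.08, 7.58 and 6.08 CPM in acellular 10 mm skin, without overlap. HDB 10 mm skin held 11.2, 13.6 and 13.7 CPM. The 15 mm wounds held 3.06, 5.78 and 15.2 CPM with acellular beads and 12.8, 14.9 and 17.8 CPM with HDB. Both HDB groups thus lay within the range of normal skin but for 1 sample above it. The log2 fold change of -1.12 ± 0.46 in acellular 10 mm skin was not called by edgeR (adjusted p = 0.093) and was called by DESeq2 (adjusted p = 0.0375) and in a fit of only these 2 groups (adjusted p = 0.0229). Twist1, its paralog, measured 38.4, 53 and 52 CPM in normal skin, 27.5, 43.1 and 29.2 CPM in acellular 10 mm skin and 42.6, 45 and 49.3 CPM in HDB 10 mm skin. It measured 8.39, 30.2 and 55.3 CPM in acellular 15 mm and 53.2, 60 and 63.1 CPM in HDB 15 mm skin. The lowest HDB 15 mm sample and the highest normal sample were nearly equal, and the difference of 0.30 ± 0.45 on the log2 scale was not called (edgeR, adjusted p = 0.708).

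Without acellular 15 mm replicate 3, the sample with the highest Twist1, Twist2 and Prrx1 of its group, 5 members were called in acellular 15 mm skin, with Twist1 at -1.31, Twist2 at -1.62 and Prrx1 at -1.40 in log2 fold change (edgeR, adjusted p = 0.0264, 0.00596 and 0.0144), and 37.3% of all genes tested were called. The pan-fibroblast sum of that sample was 16416 CPM, against 3935 and 4636 CPM in the other samples of the group. Most of this sum comes from fibrillar collagen genes such as Col3a1, with a mean of 3531 CPM over all samples against 803 CPM for Dcn. Pairwise correlations of log2 CPM over all genes were also lowest in this group, with r from 0.853 to 0.921, against 0.983 to 0.989 among normal samples.

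Genes for partners of the Twist proteins and for their inhibitors were examined beside the Twist genes. Of 6 such genes (the E proteins Tcf3 and Tcf12 and the inhibitors Id1 to Id4), 3 rose in each acellular group and 1 in each HDB group, and none fell. The share of all genes called higher also differed, at 9.77% (acellular) and 6.1% (HDB) at 10 mm and 17.6% and 2.67% at 15 mm. Tcf12, with the highest CPM, measured 93.6 ± 1.06 CPM in normal skin and 122.4 ± 16.2 CPM in acellular 10 mm skin (SD, n = 3). It rose by 0.39 and 0.45 on the log2 scale in acellular 10 mm and 15 mm skin (edgeR, adjusted p = 0.0413 and 0.0172). Tcf3 rose by 0.59 and 0.75 (adjusted p = 0.0144 and 0.00462). Id2, an inhibitor that binds E proteins without binding DNA, rose in all 4 wound groups, by 0.82 (acellular) and 0.69 (HDB) at 10 mm and by 0.62 and 0.92 at 15 mm (edgeR, adjusted p from 0.0169 to 0.0414). These genes are also expressed in the epidermis, and 8 keratinocyte genes (3 higher in acellular 10 mm, 2 higher and 2 lower in acellular 15 mm, 1 higher in HDB 10 mm skin) summed to 7591 to 8836 CPM in normal skin and 8092 to 18170 CPM in the wound groups. Their part in the change was not tested. Of 10 further mesenchymal factors, 1 rose and 3 fell in acellular 10 mm skin, 2 rose and 2 fell in acellular 15 mm skin, and 1 rose in each HDB group. Besides Tbx15, the genes that fell were Meox2 in both acellular groups and Zeb2 in acellular 10 mm skin, which are named here after their values were seen. Tbx15, a T-box factor, fell by 1.87 and 2.12 in acellular 10 mm and 15 mm skin (edgeR, adjusted p = 0.0242 and 0.011). Snai2, a zinc finger factor also used by basal keratinocytes, rose in all 4 wound groups by 1.15 to 1.44 (adjusted p from 0.00497 to 0.0272). Msx2, also a factor of the hair matrix, rose by 5.39 in acellular 15 mm skin (adjusted p = 0.00737), where replicates 1, 2 and 3 measured 212.7, 34.4 and 5.1 CPM against 1.76 to 2.21 CPM in normal skin.

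En1 was low in every sample, with 48 to 185 counts. It measured 3.51, 5.69 and 3.49 CPM in normal skin, 3.2, 4.49 and 5.03 CPM in acellular 10 mm skin and 6.57, 4.36 and 5.78 CPM in HDB 10 mm skin. The 15 mm wounds held 2.72, 3.38 and 5.63 CPM with acellular beads and 5.14, 6.12 and 10.4 CPM with HDB. All wound groups overlapped with normal skin. The log2 fold change against normal skin was 0.0023 in acellular 10 mm (95% interval -0.77 to 0.77) and 0.77 in HDB 15 mm skin (95% interval 0.0030 to 1.54), and neither was called (edgeR, adjusted p = 0.997 and 0.185). Dlk1 lay between 0.056 and 1.21 CPM in all samples and the groups overlapped throughout. Its intervals were wide, for example -1.96 to 1.68 on the log2 scale in acellular 10 mm skin, and no difference of Dlk1 was detectable at this depth.

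The comparison of HDB with acellular beads asked what the MSC-laden beads changed at a given wound size. Of the 8 genes, 7 had a higher mean with HDB at 10 mm and 6 at 15 mm, but edgeR called 0 members at either size, over both sizes, or in the interaction of treatment and size. The share of all genes with a higher mean is not given here. Twist1, Twist2 and Prrx1 had similar patterns, and Dlk1, among the 6 at 15 mm, had few counts in every sample. The numbers of higher means are therefore not a result about the 8 genes as a set. At 10 mm 0% of all genes were called, and 1 member (Twist2) had an unadjusted p under 0.05, where 3.53% of all genes had. At 15 mm 2.92% of all genes were called (0.573% higher and 2.35% lower), and 3 members (En1, Prdm1 and Pi16) had an unadjusted p under 0.05, against 23.2% of all genes. The 449 genes behind these 2.92% became 0 without any 1 of the HDB 15 mm replicates, with the length trend removed or in a fit of only the groups compared, and 2322 without acellular 15 mm replicate 3. With the replicate block, which treats same-numbered samples as paired, 1.16% of all genes and 0 members were called at 15 mm. DESeq2 called 1 member at 15 mm (Prdm1, adjusted p = 0.0461), where it called 14.1% of all genes, and 0 in each of the other 3 tests, where it called 0.111% of all genes at 10 mm, 2.77% over both sizes and 5.54% in the interaction. Over both sizes 0% of all genes were called, with 4 members (En1, Twist2, Prrx1 and Pi16) and 15.8% of all genes at an unadjusted p under 0.05. In the interaction 0% were called, with 1 member (Prdm1) and 13.4% of all genes at an unadjusted p under 0.05. The median log2 fold change of the members was 0.45 in 10 mm wounds, 0.90 in 15 mm wounds and 0.64 with the sizes joined, where the medians of all genes were -0.0084, 0.0039 and -0.0081. These comparisons share the acellular and HDB samples with those against normal skin.

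Twist2 had the smallest unadjusted p of the members over both sizes. Its level was higher in all 3 HDB 10 mm samples than in all 3 acellular 10 mm samples, and its log2 difference there was 1.04 ± 0.45 (SE, 95% interval 0.052 to 2.03). At 15 mm the groups overlapped through acellular replicate 3 and the difference was 0.92 ± 0.45 (95% interval -0.064 to 1.90). Over both sizes it was 0.98 ± 0.32 (unadjusted p = 0.0097, adjusted p = 0.261 by edgeR). Prrx1 was also higher in all HDB 10 mm samples than in the acellular ones, with a log2 difference of 0.73 (95% interval -0.13 to 1.58). Twist1 differed by 0.45 at 10 mm (95% interval -0.52 to 1.42) and by 0.91 at 15 mm (95% interval -0.067 to 1.88), with overlap at both sizes. The pan-fibroblast genes summed to 4061 to 6203 CPM (acellular) and 10116 to 13094 CPM (HDB) at 10 mm, and to 3935 to 16416 and 9449 to 20197 CPM at 15 mm, with overlap. Of these 12 genes 0 were called at either size. Their part in the Twist2 difference was not tested.

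Pi16 at 15 mm measured higher with HDB by 1.36 ± 0.56 on the log2 scale (95% interval 0.16 to 2.57, edgeR, adjusted p = 0.169), and the groups overlapped through HDB 15 mm replicate 1 and acellular 15 mm replicate 3. Within the 3 same-numbered pairs of 15 mm samples, Pi16, En1, Twist1 and Twist2 were each higher with HDB in 3 of 3, Prrx1, Dlk1 and Dpp4 in 2 and Prdm1 in 1, and 19.2% of all genes tested were higher in 3 of 3. At 10 mm the Pi16 difference was 0.60 (95% interval -0.60 to 1.80). En1 differed by 0.89 ± 0.35 at 15 mm (adjusted p = 0.164) and Prdm1 by -1.02 ± 0.38 (adjusted p = 0.14). Dpp4 differed by 0.45 at 10 mm (95% interval -0.30 to 1.2) and by -0.10 at 15 mm (95% interval -0.85 to 0.65). Calls at 15 mm depended on single libraries. Without acellular 15 mm replicate 3, 4 members were called, with En1 at 1.24, Twist1 at 1.61, Twist2 at 1.78 and Prdm1 at -1.37 (edgeR, adjusted p = 0.0453, 0.0284, 0.0179 and 0.0214), where 14.9% of all genes were called, and over both sizes Twist2 was called at 1.41 (adjusted p = 0.0486), with 1.47% of all genes. Without acellular 15 mm replicate 1, 0 members were called and the Prdm1 difference was -0.27. The interaction of treatment and size was -1.34 ± 0.54 for Prdm1 and was not called (edgeR, adjusted p = 0.299).

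The patterns of the 8 genes over the 15 samples were compared by the Pearson correlation of log2 CPM, as a description, since the points share groups and libraries. Twist1 and Twist2 had r = 0.91 (Spearman rho 0.91), which was 0.93 without the 2 samples farthest from the median of Twist1. En1 had r = 0.68 with Twist1 and 0.72 with Twist2, which were both 0.58 without the 2 farthest samples. Prrx1 had r = 0.87 with Twist1 and 0.88 with Twist2, which were 0.63 and 0.74 without the 2 farthest samples. Pi16 had r = 0.80 with Prrx1 (rho 0.85) and 0.74 with Dpp4 (rho 0.65). The pair of Pi16 and Dpp4 rested on normal skin, with r = 0.36 over the 12 wound samples. Prdm1 had negative r with all other members, from -0.78 with Twist1 to -0.19 with Dpp4, but the r with Dpp4 was 0.49 over the 12 wound samples (rho 0.056), and that with Twist1 was -0.29 without the 2 farthest samples (rho -0.34 over all samples). Dlk1 had r between -0.52 and 0.23 with the others, in counts too low for a pattern.

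**Figure D4:**
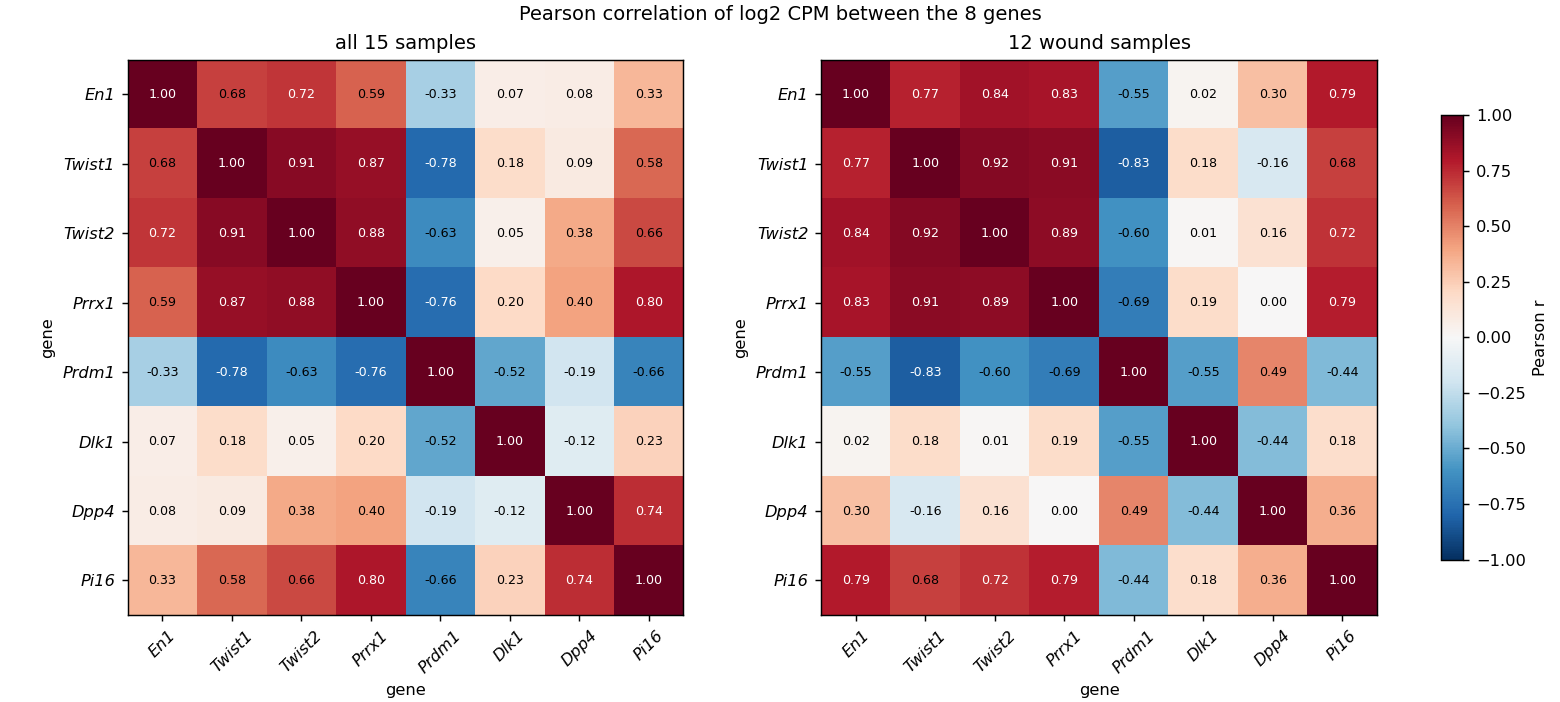
Pearson r of log2 CPM between each pair of the 8 genes, over all 15 samples (left) and over the 12 wound samples (right), on a colour scale from -1 to 1. Twist1, Twist2 and Prrx1 formed a block with r of 0.87 and above in both panels, and the r of Dpp4 with Pi16 went from 0.74 to 0.36 without normal skin.

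Each member was then compared with all 15368 other genes tested. The genes most like Pi16 were Clec3b (r = 0.97), Cd34 (r = 0.97) and Cadm3 (r = 0.96), of which Clec3b and Cd34 belong to the adventitial list, and the sum of that list had r = 0.98 with Pi16 (0.95 over the wound samples). The likeness was not particular to that list. The reticular sum had r = 0.92 with Pi16 (0.87 over the wound samples) and the endothelial sum 0.85 (0.65), and 119 genes had r of at least 0.9. The genes most like Twist2 were Fkbp7, Mmp27 and P3h3 (r = 0.96 each), where P3h3 is a collagen prolyl hydroxylase family gene. The pan-fibroblast sum, most of it from collagen genes, had r = 0.94 with Twist2. Meis3 (r = 0.96), Scarf2 (r = 0.96) and Dact3 (r = 0.95) were nearest to Twist1, and Cped1, Zfp521 and Ecm2 (r = 0.95 each) to Prrx1. An r of at least 0.9 was reached by 79 genes with Twist1 and by 51 with Twist2. The r of 0.91 between Twist1 and Twist2 was thus not particular to this pair. Zfp266, Frmd4a (both r = 0.96) and B4galnt4 (r = 0.95) were nearest to Prdm1. The nearest genes of En1 were Lox (r = 0.88), a collagen crosslinking enzyme, Tnfaip6 and Tmem119 (both r = 0.87). For Dpp4 they were Irf4 (r = 0.90), Gpm6a (r = 0.89) and Hs3st1 (r = 0.88), and for Dlk1 they were Acy3 (r = 0.81), Mavs (r = 0.74) and Cd59b (r = 0.71).

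**Figure D5:**
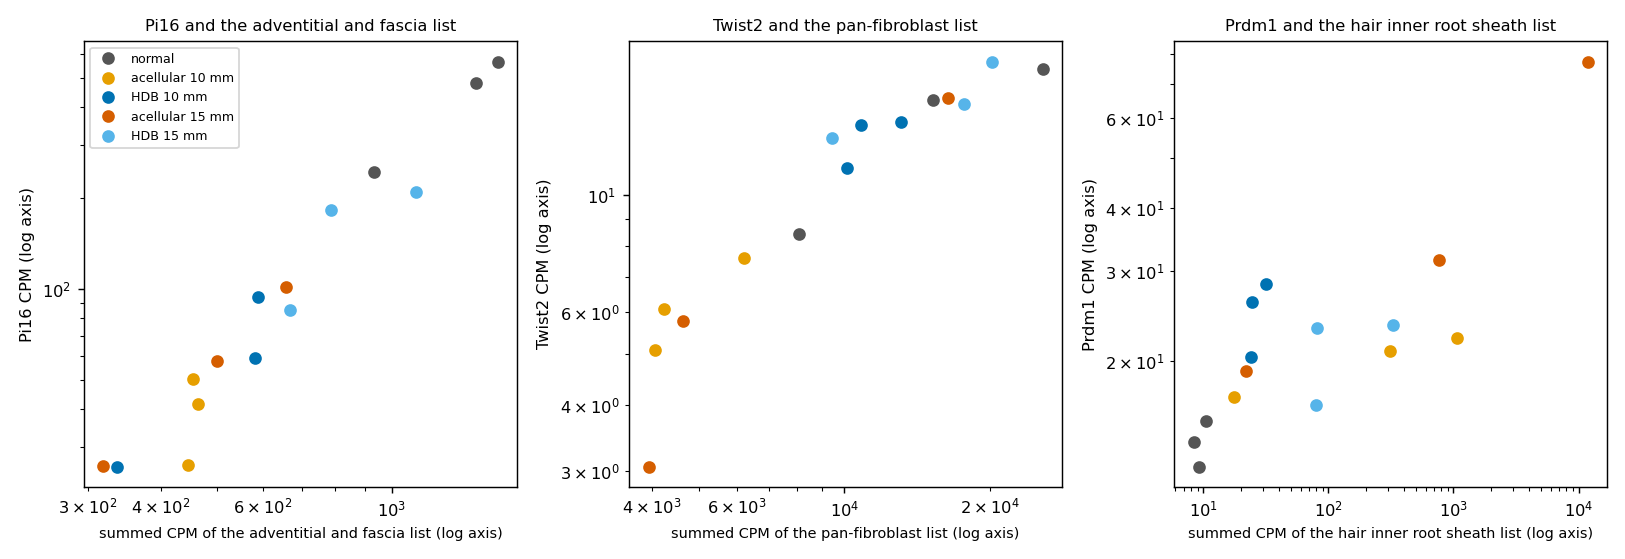
Level of Pi16, Twist2 and Prdm1 in CPM (vertical log axes) against the summed CPM of the adventitial and fascia, pan-fibroblast and hair inner root sheath lists (horizontal log axes), with 1 point per sample coloured by group. The points of Pi16 and Twist2 lay along a line with r = 0.98 and 0.94, and acellular 15 mm replicate 1 lay alone at the upper right for Prdm1 with 77.4 CPM against a sum of 11840 CPM.

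Of the remaining lists, for T cells and skeletal muscle, the T cell genes summed to 4.02 to 47.2 CPM and 0 of 6 were called against normal skin in any wound group, with Cd3g the highest in CPM. The skeletal muscle genes summed to 43088 to 51761 CPM in normal skin and 543.4 to 30953 CPM in the wound groups, and 1 of 8 (Myh1) was called, in acellular 15 mm skin. Muscle RNA thus made up a larger share of the normal libraries, and its part in the CPM of the members was not tested.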

How the data were processed

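RNA of mouse skin was sequenced in 15 samples of 5 groups by the authors, from oligo(dT) libraries. Values are estimated counts (expected counts) per gene, not normalized, as deposited in 1 table by the authors. The submitters' processing notes name HISAT2 2.0.4, Bowtie2 2.2.5, RSEM 1.2.12 and GRCm38.p6, with no order. Estimated counts were rounded to whole numbers, and those of the 8 members were whole as deposited. In R 4.3.3, edgeR 4.0.16 with TMM scaling, filterByExpr (15369 genes) and 1 quasi-likelihood fit of 5 group means gave 8 comparisons, with Benjamini-Hochberg adjustment over all genes, and the procedure was tested on simulated data. SE was derived from the fold change and the F value, and 95% intervals used the t quantile at the total degrees of freedom of the test (12.5). Log2 CPM used a prior count of 2. Members and lists were chosen with earlier results of these data known. All members are named. Other genes were named from the highest in CPM and up to 3 called genes with the smallest adjusted p of each list, and the 3 genes most correlated with each member. Alternatives were DESeq2 1.42.0, RLE scaling, no filter, a mean count of at least 50, a fit of only the groups compared, a replicate block, each sample's trend with transcript length removed (also with the block), a log2 fold change of at least 1, and leaving out each replicate. Replicate numbers were checked for pairing by the correlation of same-numbered samples' deviations from group means. All 3 exceeded 0.1 only between HDB and acellular 15 mm (0.17 to 0.40), where the numbers were taken to pair the samples. Neither labels nor methods state such a pairing, and the lowest value between HDB and acellular 10 mm was -0.31.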

Additional observations from a re-analysis of the deposited data

How the results depend on the processing

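Of 496 member fold changes recomputed under the other settings, 17 changed sign and 18 crossed the threshold, and with 1 library left out 24 and 18 of 480 did. The number of members called changed as follows, and the cause was not tested. In acellular 10 mm against normal it was 4 by DESeq2 (with 32.9% of all genes called), 5 with only the groups compared (42%) and 1 to 2 with 1 library left out (5.14% to 11.9%). In acellular 15 mm against normal it was 3 by DESeq2 (40.2%), 3 with the length trend removed (28.7%) and with the block as well (23.2%), 1 with only the groups compared (6.57%) and 2 to 5 with 1 library left out (14.8% to 37.3%). The member gained was Dpp4 by DESeq2 and with the length trend removed. With the block as well it was Prrx1 (-1.07, edgeR, adjusted p = 0.0441). In HDB 10 mm against normal it was 1 without the filter (7.8%), 1 with the replicate block (7.72%), 1 with the length trend removed and the block (7.47%), and 0 to 2 with 1 library left out (0.501% to 17.5%), and with only the groups compared (20.2%) it was 2, with Prdm1 in place of Dpp4. In HDB 15 mm against normal it was 2 by DESeq2 (18.6%) and 1 with only the groups compared (22.9%). In HDB against acellular beads it was 1 by DESeq2 (14.1%) and 0 to 4 with 1 library left out (0% to 14.9%) at 15 mm, and 0 to 1 with 1 library left out (0% to 1.47%) over both sizes. The block changed no other member count, including that at 15 mm, where the numbers were taken to pair the samples.

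None of the differences whose sign changed had been called. En1 in acellular 10 mm against normal was -0.023 by DESeq2, -0.023 with RLE scaling, -0.015 with a mean count of at least 50, -0.0085 with only the groups compared, -0.033 with the replicate block, -0.037 with the length trend removed, -0.073 with both, and -0.14 to 0.26 with 1 library left out. Dlk1 in acellular 10 mm against normal was 0.040 with the block, 0.037 with the length trend removed and the block, and -0.55 to 0.35 with 1 library left out. Dlk1 over both sizes was -0.077 and -0.041 under the same pair of settings, and -0.58 to 0.39. Twist1 in HDB 10 mm against normal was 0.0062 with the length trend removed and the block, and -0.20 to 0.014. Dpp4 in HDB against acellular 15 mm was 0.054 with the length trend removed, 0.0019 with the block as well, and -0.34 to 0.23. The interaction was 0.15 and 0.23 for Prrx1 under the same settings, with -0.57 to 0.37, and 0.027 for Twist2 with the block, with -0.51 to 0.74. With 1 library left out, En1 in acellular 15 mm against normal ranged from -0.47 to 0.16, Twist2 in HDB 10 mm against normal from -0.33 to 0.13, Dlk1 in HDB 15 mm against normal from -0.56 to 0.68, Twist2 there from -0.083 to 0.37, and Prdm1 over both sizes from -0.53 to 0.025. All 40 group means moved by less than 1 SD with RLE scaling, and 13 of 28 correlations between members moved by over 0.1 over the 12 wound samples. Dlk1, with 1 to 20 counts per sample, had the largest SE of the members in all 8 comparisons.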
